A study of Homo sapiens with 12 samples.

Results

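The 87 genes described here encode the nuclear part of the mitochondrial respiratory chain and ATP synthase. They are the protein-coding genes of the count table named NDUFA, NDUFB, NDUFC, NDUFS or NDUFV with a number, SDHA to SDHD, or beginning with UQCR, COX4 to COX8 or ATP5, out of 60669 gene IDs. Complex I has 37 of them, complex II 4, complex III 9, complex IV 17 and complex V 20. Complexes were assigned by name and not by place in the assembled complex. NDUFA4 was thus counted in complex I, and ATP5MF-PTCD1, 100% overlapped by exons of ATP5MF and PTCD1, in complex V. The rule reads names and no measured value, and it was set with earlier results of these data known.

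RNA-seq was made from 6 established ovarian cancer cell lines, each given 8 µM quinacrine (QC), an antimalarial drug, or vehicle for 6 h. The chemosensitive lines were HeyA8, SKOV3 (SK-OV-3) and OV2008, and their isogenic resistant partners were HeyA8-MDR, described by the study as carboplatin-resistant, the taxol-resistant SKOV3-TR and the cisplatin-resistant C13. Each line and treatment had 1 library, 12 in all, and p-values therefore rest on the spread between lines and not on any spread within a line. The QC effects in sensitive and in resistant lines came from 1 fit of all 12 libraries, with a shared estimate of spread. In bulk RNA, fewer cells of one kind and less RNA per cell cannot be told apart. The HeyA8 pair was cultured in DMEM with high glucose and the other 4 lines in RPMI-1640, so family and medium cannot be told apart for it. Vehicle libraries of lines of the same family share their origin, and a resistant line is a single derived line.

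Electrons from NADH enter the chain at complex I and those from succinate at complex II, and ubiquinone carries them to complex III. Cytochrome c then passes them to complex IV, which reduces oxygen, while the proton gradient built by complexes I, III and IV drives ATP synthesis by complex V. Complexes I, III, IV and V mix subunits of the nuclear and of the mitochondrial genome, and complex II is built from nuclear genes alone. Transcription factors such as NRF1, the ETS factor GABP and YY1 are known regulators of many of the nuclear genes.

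Libraries held between 17782556 and 30585059 counts, and the 87 genes took between 0.556% and 1.12% of them. Of the 87 genes, 83 passed the expression filter, and 75 had at least 100 counts in every library. The 4 that did not pass were COX4I2, COX6A2, COX8C and ATP5MGL, isoform or paralogue genes at 0.133 CPM or less in every library. CPM is the count per 1000000 counts of a library after TMM scaling. The QC library of HeyA8 stood apart: for 285 genes at least 8-fold higher in HeyA8-MDR than in HeyA8 vehicle, its median position was 39.6% of the distance to the HeyA8-MDR level, and for 218 genes at least 8-fold lower it was 52.7%. In the remaining lines the corresponding medians lay between 0 and 31.2%, the highest in HeyA8-MDR for genes that are lower in HeyA8. Several results are therefore also given without HeyA8. Most values of single subunits over all lines are given with HeyA8 only. Among the marker genes, KRT8 and KRT18 were detected in every library. EPCAM, CDH1 and KRT19 read at or below 2.92 CPM in the HeyA8 pair, and PAX8 was between 7.55 and 24.7 CPM in OV2008 and C13 but 234 or more in the other lines. COL3A1, DCN, LUM, PTPRC, CD3E and CD68 read under 1 CPM in all libraries, while CDH5 read 89.1 to 176 CPM in the HeyA8 pair. VWF read 5.09 CPM in the HeyA8 and 5.28 CPM in the SKOV3-TR vehicle library. The 6 fibroblast markers, COL1A1 and PDGFRB among them, summed to 40.6 and 42.9 CPM in SKOV3-TR vehicle and QC libraries. Their sum was 22.4 and 33.2 CPM in HeyA8 and between 1.56 and 20.7 CPM in the other lines. The part of these marker differences in the results below was not tested.

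The promoters are shown for 5 genes on which the results below turn. RefSeq entries (GRCh38.p14) were found for 69 of the 87 genes, 82 promoters in all, and the 250 bases before each start were searched on both strands for 4 motif cores of 7 letters. The NRF1 core CATGCGC was found in 18.3% of the member promoters against 4.53% of 22199 promoters of coding genes, and the ETS core CCGGAAG in 23.2% against 10.7%. The YY1 core AAGATGG was found in 7.32% against 3.36%, and the CRE core TGACGTC in 7.32% against 3.73%. At least 1 core was present in 45.1% of member promoters and 19.96% of all. These are matches of letters in reference sequence, and they do not show binding in these cells. Capitals mark the cores in the following sequences, which run 5′ to 3′ on the gene's strand. SDHB (chr1:17054033-17054282, minus strand) and COX6A1 (chr12:120437863-120438112, plus strand) hold an NRF1 and an ETS core, NDUFS6 (chr5:1801157-1801406, plus strand) an NRF1 core, UQCRH (chr1:46303448-46303697, plus strand) an ETS core, and COX7B2 (chr4:46909246-46909495, minus strand) none of the 4.
SDHB: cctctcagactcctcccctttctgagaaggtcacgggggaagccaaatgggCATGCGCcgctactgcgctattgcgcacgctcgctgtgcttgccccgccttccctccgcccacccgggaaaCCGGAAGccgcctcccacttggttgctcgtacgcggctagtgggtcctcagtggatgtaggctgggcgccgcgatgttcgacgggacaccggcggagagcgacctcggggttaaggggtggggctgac
COX6A1: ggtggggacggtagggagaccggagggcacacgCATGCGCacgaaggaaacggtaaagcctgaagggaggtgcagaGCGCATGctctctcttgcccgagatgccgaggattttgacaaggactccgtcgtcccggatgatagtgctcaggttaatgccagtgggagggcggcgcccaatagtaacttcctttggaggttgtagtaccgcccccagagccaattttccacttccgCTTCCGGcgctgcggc
NDUFS6: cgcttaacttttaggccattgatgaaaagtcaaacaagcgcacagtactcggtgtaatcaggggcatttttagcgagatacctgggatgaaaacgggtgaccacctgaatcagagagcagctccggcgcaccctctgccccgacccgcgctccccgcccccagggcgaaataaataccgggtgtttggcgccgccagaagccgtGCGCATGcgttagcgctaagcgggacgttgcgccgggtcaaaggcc
UQCRH: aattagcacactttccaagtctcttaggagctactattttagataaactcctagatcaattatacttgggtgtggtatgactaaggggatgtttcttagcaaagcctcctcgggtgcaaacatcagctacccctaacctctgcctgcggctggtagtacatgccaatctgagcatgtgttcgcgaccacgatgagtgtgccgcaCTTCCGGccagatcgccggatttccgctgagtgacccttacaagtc
COX7B2: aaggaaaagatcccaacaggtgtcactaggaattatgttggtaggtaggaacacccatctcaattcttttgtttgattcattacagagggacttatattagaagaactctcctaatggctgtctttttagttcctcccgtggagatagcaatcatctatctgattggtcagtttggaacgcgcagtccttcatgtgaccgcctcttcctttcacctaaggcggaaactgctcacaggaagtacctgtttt

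The first comparison asked how QC altered the subunit mRNAs within each line. Most subunits were higher after QC in HeyA8, HeyA8-MDR and SKOV3-TR and lower in OV2008 and C13, and in these lines the medians of all 5 complexes lay on the same side of 0. The median log2 ratio of QC over vehicle for the 83 genes was 0.35 in HeyA8, 0.39 in HeyA8-MDR and 0.47 in SKOV3-TR. It was 0.03 in SKOV3, -0.10 in OV2008 and -0.27 in C13. The number of genes above 0 was 70 in HeyA8, 71 in HeyA8-MDR, 78 in SKOV3-TR, 47 in SKOV3, 22 in OV2008 and 6 in C13. The median over all 18720 genes tested lay between -0.03 and 0.03 in every line. These are descriptions of single library pairs, which have no replicate.

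**Figure D1:**
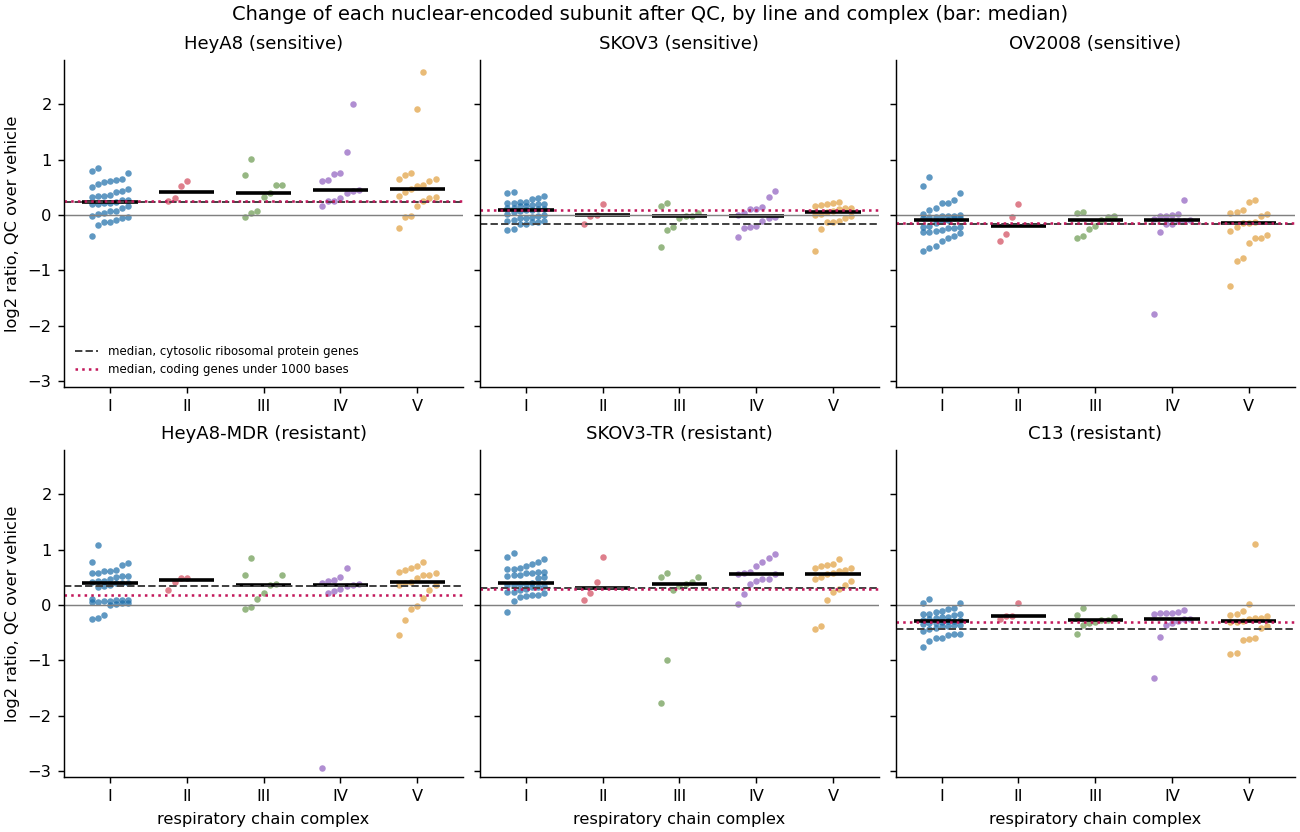
Each point is the log2 ratio of QC over vehicle for 1 subunit gene, by complex I to V (x axis), with 1 panel per line and black bars at the medians. The dashed line is the median of 83 cytosolic ribosomal protein genes and the dotted line that of 779 coding genes with transcripts under 1000 bases. The bars of all 5 complexes lie above 0 in HeyA8, HeyA8-MDR and SKOV3-TR and below 0 in OV2008 and C13.

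Complex I, which oxidizes NADH, had median log2 ratios of 0.24 in HeyA8, 0.39 in HeyA8-MDR and 0.39 in SKOV3-TR, against 0.09 in SKOV3, -0.09 in OV2008 and -0.29 in C13. Within it the 10 genes listed for the N module, which holds the NADH site, had medians of 0.42 in HeyA8, 0.44 in HeyA8-MDR, 0.14 in SKOV3, 0.48 in SKOV3-TR, -0.09 in OV2008 and -0.28 in C13. The 5 genes listed for the Q module, which reduces ubiquinone, had medians of -0.03, 0.09, 0.09, 0.24, -0.31 and -0.37 in that order of lines. NDUFA9 was not counted in either list. Complex II, which oxidizes succinate, was at 0.42, 0.45 and 0.31 in HeyA8, HeyA8-MDR and SKOV3-TR and at -0.19 and -0.20 in OV2008 and C13. Complex III gave 0.41, 0.36, 0.38, -0.09 and -0.27 in the same order of lines. Complex IV, cytochrome c oxidase, gave 0.46, 0.37, 0.56, -0.09 and -0.25, and complex V gave 0.48, 0.42, 0.56, -0.15 and -0.29. In SKOV3 complexes II to V lay between -0.02 and 0.06. The summed level of all 87 genes after QC was 1.27 times vehicle in HeyA8, 1.26 in HeyA8-MDR, 1.02 in SKOV3, 1.34 in SKOV3-TR, 0.876 in OV2008 and 0.810 in C13.

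Other classes moved with these medians in most lines. In SKOV3, however, the ribosomal protein median lay below 0 and the subunit median was 0.03. The 83 cytosolic ribosomal protein genes, whose symbols begin with RPL or RPS, had median log2 ratios of 0.24 in HeyA8, 0.35 in HeyA8-MDR, -0.15 in SKOV3, 0.30 in SKOV3-TR, -0.17 in OV2008 and -0.43 in C13. The 779 coding genes with a transcript under 1000 bases had medians of 0.26, 0.19, 0.09, 0.29, -0.15 and -0.30 in that order, and 53 of the subunit genes are that short. These classes were chosen after the values were seen. The part of transcript length in the subunit medians was not tested. Scaling by library size alone moved the median of all genes to -0.13 in HeyA8-MDR, -0.12 in SKOV3-TR and 0.12 in C13, and the subunit medians were then 0.25, 0.35 and -0.11. The signs that turned were those of complexes II and IV in SKOV3, to 0.02 and 0.01, and of the Q module in HeyA8-MDR, from 0.09 to -0.04.

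Of the 13 subunits encoded by mitochondrial DNA, 12 read higher with QC in HeyA8-MDR, 13 in SKOV3-TR, 6 in HeyA8, 4 in SKOV3, 1 in OV2008 and 0 in C13. Their median log2 ratios were -0.02 in HeyA8, 0.35 in HeyA8-MDR, -0.15 in SKOV3, 0.38 in SKOV3-TR, -0.54 in OV2008 and -0.40 in C13. In the tests across lines 0 of the 13 passed an unadjusted p of 0.05 for QC, and MT-CYB came nearest over the 6 lines, with a log2 change of -0.18 ± 0.13 (SE, adjusted p = 0.536 by edgeR).

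The QC effect was then tested across lines with edgeR, with a term for each line. With all 6 lines, 10 of the 83 subunits passed an unadjusted p of 0.05 in the higher direction, beside 7.99% of all genes, and 2 in the lower direction, beside 7.18%. At an adjusted p under 0.05 the count was 0 of 83 subunits and 0% of all 18720 genes, and DESeq2 also called 0 subunits, beside 4.13% of the 12550 genes to which it gave an adjusted p. The median log2 change of the subunits was 0.13, with 66 of 83 above 0, and that of all genes was 0.00. By complex it ran from 0.11 in complex I to 0.20 in complex V. Leaving out C13 gave 18 subunits in the higher direction, beside 6.12% of all genes in that fit. Leaving out HeyA8, HeyA8-MDR or SKOV3-TR gave 4, 3 and 3, beside 6.62%, 5.23% and 7.79%. The lower count was 0 without OV2008 or C13, beside 4.75% and 6.35% of all genes, and the median without HeyA8 was 0.08.

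NDUFS4, an accessory subunit of complex I that is mutated in Leigh syndrome, had the smallest p among the subunits over the 6 lines. Its level in vehicle and QC libraries was 41.7 and 72.2 CPM in HeyA8, 52.4 and 89.4 in HeyA8-MDR, 23.8 and 29.2 in SKOV3, 25.7 and 33.1 in SKOV3-TR, 30.9 and 40.7 in OV2008, and 55.7 and 56.9 in C13. It was higher with QC in all 6 lines, barely so in C13. The log2 change was 0.44 ± 0.13 (SE), with an adjusted p of 0.176 by edgeR. NDUFB3, a small membrane arm subunit, was at 0.42 ± 0.15 (adjusted p = 0.213 by edgeR), higher in 5 lines and at -0.05 in C13.

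SDHB, the iron-sulfur subunit of complex II, read 71.8 and 110 CPM in HeyA8, 78.0 and 110 in HeyA8-MDR, 58.1 and 66.4 in SKOV3 and 69.4 and 126 in SKOV3-TR in vehicle and QC libraries. In OV2008 it read 143 and 139 CPM and in C13 142 and 124 CPM, so 4 lines were higher and 2 lower. Its log2 change was 0.32 ± 0.15 (SE, adjusted p = 0.328 by edgeR). SDHC, a membrane anchor of that complex, was at 0.21 ± 0.11 (adjusted p = 0.397 by edgeR) and was above 0 in all 6 lines.

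The 2 complex III subunits with the smallest p were UQCRB at 0.24 ± 0.15 (SE, adjusted p = 0.464 by edgeR) and UQCR10 at 0.26 ± 0.16 (adjusted p = 0.482), neither past an unadjusted p of 0.05. The log2 ratio of UQCR10 was 1.01 in HeyA8 and between -0.22 and 0.55 in the other lines. In complex IV, COX6A1, the widely expressed form of subunit VIa, was at 0.33 ± 0.12 (adjusted p = 0.217 by edgeR). Its level was higher with QC in 5 lines, from 36.8 to 49.6 CPM in SKOV3 and 47.2 to 70.7 CPM in SKOV3-TR, for example, and 94.1 against 88.5 CPM in C13. COX7A2, the common form of subunit VIIa, was at 0.31 ± 0.14 (adjusted p = 0.334 by edgeR).

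Complex V held 5 of the 10 subunits in the higher direction. ATP5IF1, the inhibitor that blocks ATP hydrolysis by the synthase, was at 0.36 ± 0.13 (SE, adjusted p = 0.213 by edgeR) and above 0 in all 6 lines. Its vehicle and QC levels were 20.3 and 29.2 CPM in HeyA8, 25.8 and 40.2 in SKOV3-TR and 63.6 and 64.1 in C13. ATP5PF, ATP5MG, ATP5MK and ATP5MF, membrane-sector or stalk subunits, were at 0.35, 0.31, 0.34 and 0.52, with adjusted p between 0.300 and 0.329 by edgeR. The value of ATP5MF rested on HeyA8, where its log2 ratio was 1.92, and it was 0.26 without that line. ATP5F1D, the delta subunit of the F1 part, went the other way at -0.41 ± 0.14 (adjusted p = 0.219 by edgeR). It read 132 and 73.8 CPM in OV2008, 149 and 81.7 in C13, 48.7 and 37.2 in SKOV3-TR, and 41.0 and 45.7 in SKOV3, the only line where it was higher with QC.

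**Figure D2:**
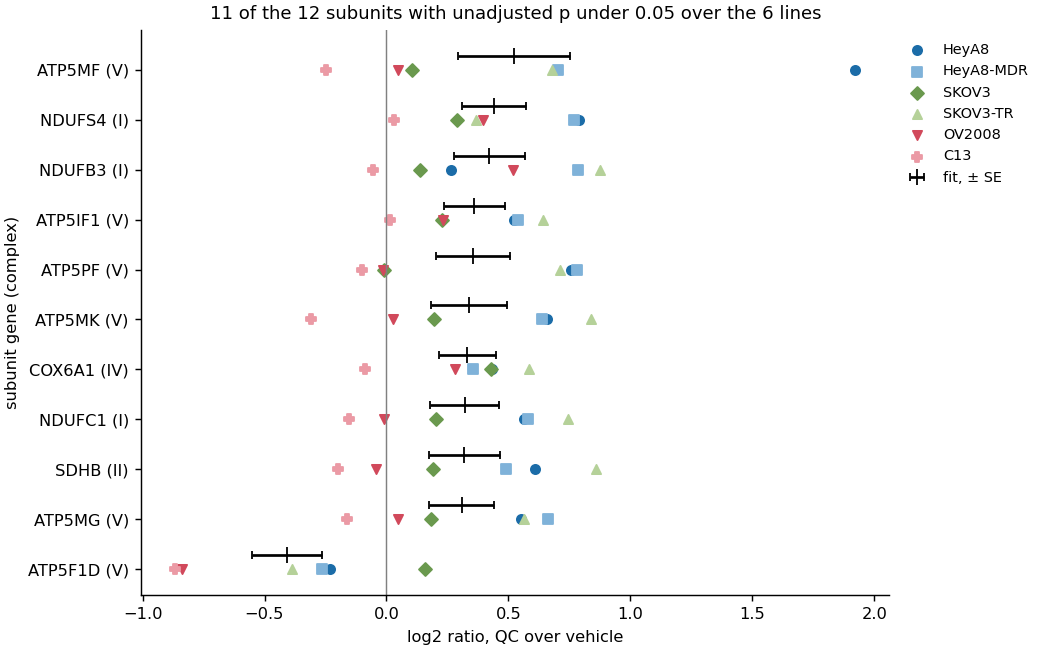
Shown are 11 of the 12 subunits with an unadjusted p under 0.05 over all 6 lines. Coloured points are the log2 ratios of QC over vehicle in each line and black bars the fitted change ± SE. C13 has the lowest point in all 11 rows, and ATP5MF in HeyA8 lies at 1.92.

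The subunits with the same sign in all 6 lines numbered 4 higher and 1 lower of 83, beside 3.81% and 4.39% of all genes. The 4 were NDUFA7, NDUFS4, ATP5IF1 and SDHC, with median log2 ratios of 0.51, 0.38, 0.38 and 0.21. NDUFA7 had only 1.25 to 4.75 CPM, and 77.9% of its transcript is overlapped by exons of other genes, so its counts are uncertain.

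The c-ring genes of complex V read lower with QC in the OV2008 pair. ATP5MC1, ATP5MC2 and ATP5MC3 encode the same mature c subunit. ATP5MC2 read 188 CPM in vehicle and 77.7 in QC libraries of OV2008 and 203 and 110 in C13, but 216 and 211 in HeyA8, 293 and 279 in HeyA8-MDR, 145 and 133 in SKOV3 and 167 and 178 in SKOV3-TR. ATP5MC1 and ATP5MC3 were also lower there, at log2 ratios between -0.51 and -0.78. Over the sensitive lines ATP5MC2 was at -0.47 ± 0.27 (SE) with an adjusted p of 0.775 by edgeR. Per kilobase of transcript, the summed level of the 3 genes was 636 CPM in OV2008 vehicle and 350 in QC, and 687 and 415 in C13.

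In the sensitive lines alone, 1 of 83 subunits passed an unadjusted p of 0.05 in the higher direction, beside 3.55% of all genes, and 0 in the lower, beside 3.04%. The adjusted count was 0 subunits and 0% of all genes by edgeR, and DESeq2 gave 0 subunits, beside 0.205% of the genes with an adjusted p. NDUFS4 was the 1, at 0.49 ± 0.20 (SE, adjusted p = 0.724 by edgeR). The next members by p were NDUFB1 at 0.33, SDHC at 0.25, SDHB at 0.25, UQCRC1 at 0.25, UQCRQ at 0.20, COX6A1 at 0.38, COX8A at 0.26, ATP5MF at 0.68 and ATP5MC2 at -0.47, with adjusted p between 0.755 and 0.872 by edgeR. Without HeyA8 the values were 0.34 for NDUFS4, 0.07 for ATP5MF, 0.07 for SDHB, 0.10 for SDHC, 0.10 for UQCRC1, 0.06 for COX8A, 0.24 for NDUFB1, 0.13 for UQCRQ, 0.35 for COX6A1 and -0.70 for ATP5MC2. The median of the 83 subunits was 0.09, and without HeyA8 it was -0.06. With HeyA8 left out 0 subunits were past 0.05 in the higher direction, beside 2.08% of all genes, and 1 in the lower, beside 1.99%. Without SKOV3 the counts were 2 and 1, beside 5.26% and 4.79%.

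In the resistant lines 2 of 83 subunits were past an unadjusted p of 0.05 in the higher direction, beside 3.43% of all genes, and 1 in the lower, beside 2.59%. The adjusted count was again 0, with 0% of all genes by edgeR and 0 subunits and 0% of all genes by DESeq2. NDUFA5, a matrix arm subunit, was at 0.56 ± 0.22 (SE, adjusted p = 0.817 by edgeR). Its level was 7.78 and 16.6 CPM in HeyA8-MDR, 20.8 and 29.9 in SKOV3-TR and 41.3 and 44.4 in C13. NDUFB3 was at 0.53 ± 0.22 and ATP5F1D at -0.51 ± 0.21 (adjusted p = 0.817 for both by edgeR). SDHB, SDHD, UQCRB, UQCR10, COX6C, COX6A1 and ATP5PF lay between 0.22 and 0.47 with adjusted p from 0.820 to 0.890 by edgeR. The subunit median was 0.17 with all 3 lines, 0.40 without C13 and 0.07 without HeyA8-MDR. Leaving out C13 brought 24 of 83 subunits past an unadjusted p of 0.05 in the higher direction, beside 4.1% of all genes in that fit. Leaving out HeyA8-MDR or SKOV3-TR brought 0, beside 1.23% and 4.04%. The lower count was 0 without SKOV3-TR or C13, beside 2.18% and 2.87%.

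The test of the difference between resistant and sensitive lines found 0 of 83 subunits at an unadjusted p under 0.05 in either direction, beside 0.566% of all genes higher and 0.593% lower, and 0 at an adjusted p, as for 0% of all genes by edgeR. DESeq2 also called 0 subunits, and 1 of all genes. NDUFA5 came nearest, with a difference of 0.57 ± 0.31 (SE, adjusted p = 0.9998 by edgeR). The next by complex were NDUFA3 at 0.37, SDHD at 0.32, SDHA at 0.14, UQCRB at 0.28, UQCRC1 at -0.16, ATP5PD at 0.29 and ATP5PB at 0.22, at the same adjusted p. COX7A1 and COX7B2 were at -1.20 and 0.76 with SE of 1.28 and 0.83, both genes being near 0 in most lines. The median SE of a subunit's difference was 0.31, and larger differences, such as that of NDUFA5, could not be told from 0 either. Of simulated 2-fold differences, 59% passed an unadjusted p of 0.05 and 9% the adjusted threshold. Without C13 the count was 3 in the higher direction, beside 1.31% of all genes. The median difference of the subunits was 0.09, and it was -0.03 without SKOV3-TR and -0.05 without OV2008.

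The second comparison concerned the level before treatment, over the 6 vehicle libraries. For 67 of 83 genes the highest of the 6 lines was OV2008 or C13, beside 30.6% of all genes. For 63 the lowest was SKOV3 or SKOV3-TR, a count for which no share of all genes was taken. Of the 83 genes, 48 were higher in both OV2008-family lines than in the other 4, beside 17.8% of all genes, and 51 were lower in both SKOV3-family lines than in the other 4, beside 16.9% of all genes. In the HeyA8 pair 2 were above the other 4 lines, beside 15.1% of all genes, and 7 below, beside 13.5%. Lines with equal levels, such as 0 counts in each, were not counted as above or below each other. By complex, the highest line was of the OV2008 family for 33 of 37 complex I genes, 3 of 4 in complex II, 7 of 9 in complex III, 8 of 14 in complex IV and 16 of 19 in complex V. The share to set beside each of these is the same 30.6% of all genes. In the QC libraries 20 subunits were above the other 4 in the OV2008 pair, beside 17.5% of all genes, 23 were above in the HeyA8 pair, beside 18.6%, and 45 were below in the SKOV3 pair, beside 17.6%.

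**Figure D3:**
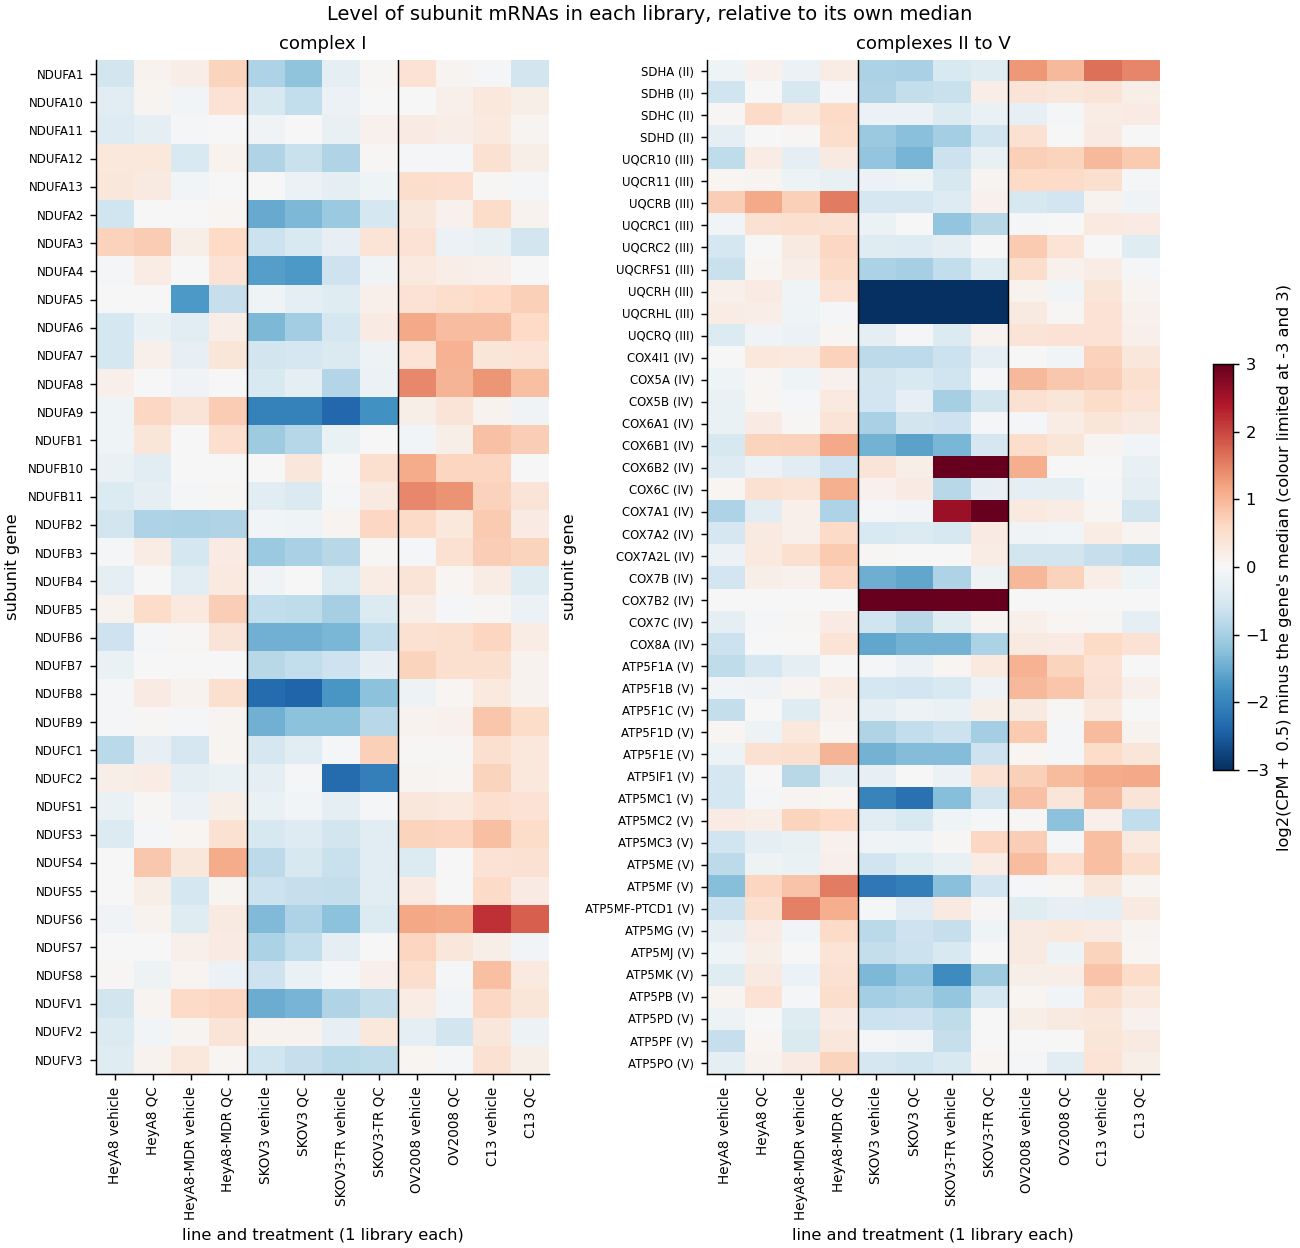
Levels of 82 of the 83 subunit genes (rows, complex in brackets) in the 12 libraries (columns), as log2(CPM + 0.5) minus each gene's median. Red is higher and blue lower, with colours limited at -3 and 3 and black lines between families. The SKOV3 family is mostly blue, and UQCRH, UQCRHL and COX7B2 stand out there.

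In the test among the 3 families, with the 2 lines of a family as its replicates, 39 of 83 subunits had an unadjusted p under 0.05, beside 37.2% of all genes. At an adjusted p under 0.05 13 subunits, or 15.7%, differed, beside 15.2% of all genes, a share close to the background. They were NDUFS6, NDUFA8, NDUFA9, NDUFB9 and NDUFB8 of complex I, SDHA of complex II, UQCRH, UQCRHL and UQCR10 of complex III, COX7B2 and COX8A of complex IV, and ATP5MC1 and ATP5F1E of complex V. COX7B2 passed the expression filter only through the SKOV3 family, where it is high, so its place among the 13 is no support. The fit has 2 residual degrees of freedom. Leaving out HeyA8, HeyA8-MDR, SKOV3, SKOV3-TR, OV2008 or C13 left 4, 5, 9, 8, 1 and 1 subunits past the adjusted threshold, beside 7.44%, 8.94%, 17.2%, 16.3%, 2.04% and 1.89% of all genes. DESeq2 gave 38 subunits, beside 37.2% of the genes with an adjusted p. Without OV2008 the unadjusted count was 17, beside 26.2% of all genes.

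Per kilobase of canonical transcript, complex IV had the highest median level, 132 CPM per kilobase over the vehicle libraries, followed by complex V at 90.2, I at 58.6, II at 51.4 and III at 45.1. Complex IV was first and V second in each of the 6 lines, nearly level in OV2008 at 136 and 133 and in C13 at 151 and 150. Complex III was last in 4 lines, but in OV2008 it stood at 85.0, above I at 75.5 and II at 56.3, and in C13 at 66.2, above II at 59.0. NDUFB6, for which no canonical model was at hand, was left out. With the union of all exons as the length, complexes IV and V stayed on top, at 48.0 and 32.0, and complex I came last at 12.96. Within complex V the catalytic beta subunit ATP5F1B had a median of 495 CPM per kilobase, from 343 to 977, and ATP5F1A 79.3. Within complex IV, COX4I1, the main form of subunit IV, had 358, and in complex III UQCRC1, a core subunit, had 142 and the Rieske protein UQCRFS1 26.1. In complex I NDUFV1, which binds NADH and FMN, had 125 and NDUFS1 4.53 on a model of 11660 bases, and in complex II SDHB had 73.8 and SDHA 12.4. COX5A of complex IV had 65.7.

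UQCRH (ENSG00000173660), the hinge protein of complex III, was nearly absent from the SKOV3 family. Its vehicle and QC libraries held 14 and 8 counts in SKOV3 and 7 and 0 in SKOV3-TR. In the other lines it held 3768 and 4810 in HeyA8, 2677 and 3418 in HeyA8-MDR, 2865 and 3187 in OV2008 and 5762 and 4212 in C13. In vehicle libraries that was 139 to 192 CPM against at most 0.585 CPM, at least 237-fold. The family test gave an adjusted p of 0.00578 by edgeR, the smallest among the subunits. UQCRHL, an intronless near-identical copy, held 2 to 10 counts in the SKOV3 family and 187 to 463 elsewhere, or 5.47 to 8.59% of the UQCRH counts. Reads of these genes can be split by the counting, and UQCRHL is uncertain for that reason.

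The next gene on the chromosome, LRRC41, was also low in the SKOV3 family. It read 7.56 and 6.64 CPM in the SKOV3 and SKOV3-TR vehicle libraries and 88.5 to 117 CPM in the other 4. Its difference between the SKOV3 family and the others was -3.84 on the log2 scale, beside -8.53 for UQCRH, while the 10 nearest tested coding genes had a median of 0.33 with values from -3.84 to 3.84. The neighbours NSUN4 and RAD54L were at 0.83 and -0.65. All neighbour comparisons were chosen after the values were seen.

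**Figure D4:**
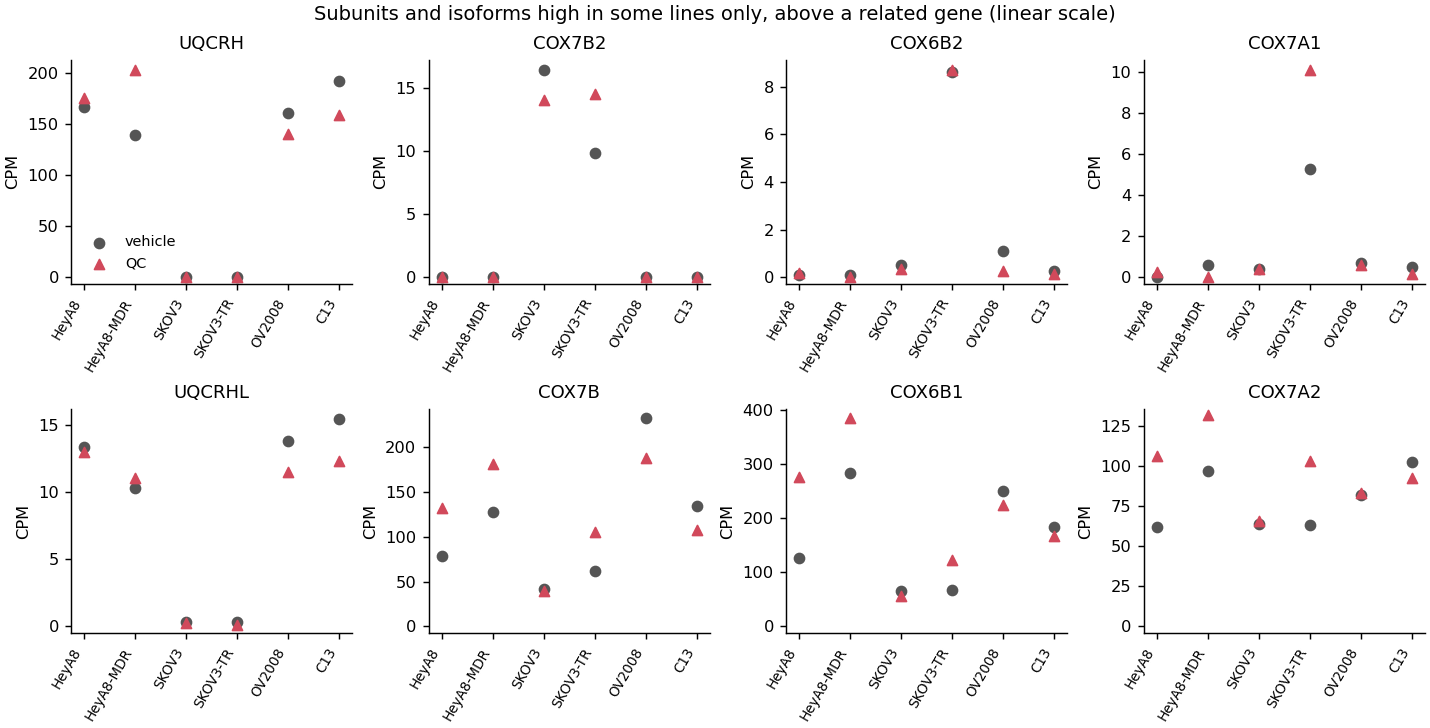
CPM in vehicle (circles) and QC (triangles) libraries of the 6 lines for 4 genes that are high in some lines only, each above a related gene. UQCRH and UQCRHL are near 0 in SKOV3 and SKOV3-TR, COX7B2 is seen only there, and COX6B2 and COX7A1 are high only in SKOV3-TR.

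COX7B2, a paralogue of subunit VIIb with expression known mainly from testis, showed the opposite pattern. It read 16.4 and 14.1 CPM in SKOV3 and 9.85 and 14.5 in SKOV3-TR in vehicle and QC libraries, and 0 counts in all 8 other libraries. That is at least 58.7-fold higher in vehicle libraries, against a floor of 3 counts per library. The adjusted p among families was 0.0208 by edgeR, but COX7B2 passed the expression filter only through the SKOV3 family, so this p adds no support. COX7B itself was present in all lines, from 39.3 to 233 CPM. Other isoforms marked SKOV3-TR. COX7A1, the muscle form of subunit VIIa, read 5.28 and 10.1 CPM there and at most 0.671 elsewhere, and COX6B2, the testis form of subunit VIb, read 8.61 and 8.68 CPM there and at most 1.12 elsewhere. COX6B1 and COX7A2, their common counterparts, read 56.9 or more in every library. Between SKOV3-TR and SKOV3 vehicle libraries COX7A1 was at 3.42 on the log2 scale, and 10 of its 10 neighbours were also higher, with a median of 0.47. COX6B2 was at 3.89, and 8 of its 10 neighbours were higher, with a median of 1.08 and values from -0.27 to 3.78.

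SDHA and NDUFS6, both near the end of the short arm of chromosome 5, were high in the OV2008 family. SDHA, the flavoprotein of complex II, read 92.7 and 118 CPM in OV2008 and C13 vehicle libraries, 33.9 and 32.7 in HeyA8 and HeyA8-MDR and 18.8 and 26.9 in SKOV3 and SKOV3-TR (adjusted p = 0.0282 by edgeR). NDUFS6, a subunit of complex I needed for its assembly, read 145 and 295 CPM in OV2008 and C13 and 25.6 and 27.3 in SKOV3 and SKOV3-TR, with 60.001 and 50.1 in HeyA8 and HeyA8-MDR (adjusted p = 0.0206). Their differences from the other families were 1.93 and 2.44 on the log2 scale. Of the 7 nearest tested genes, 6 were also higher at SDHA, with a median of 1.58, and 10 of 10 at NDUFS6, with a median of 1.74, against a median of -0.04 over all genes. SDHA shares 69.4% of its transcript bases with exons of another gene model.

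NDUFA9 and NDUFB8 were low in the SKOV3 family. NDUFA9, an accessory subunit of complex I, read 6.68 and 5.28 CPM there and 26.2 to 37.7 in the other vehicle libraries (adjusted p = 0.0400 by edgeR), and 9 of its 10 neighbours were lower too, with a median of -1.98. NDUFB8, a membrane arm subunit, read 4.80 and 7.31 CPM against 23.3 to 31.5 (adjusted p = 0.0480). Of its 10 neighbours 7 were lower too, with a median of -0.90 and values from -1.98 to 3.57. The NDUFB8 gene model is 72.0% overlapped by other exons. NDUFA8 and ATP5MC1 were highest in the OV2008 family: NDUFA8 read 167 and 154 CPM there against 32.9 to 67.9 elsewhere, and ATP5MC1 166 and 178 against 22.2 to 95.6. COX8A, ATP5F1E, UQCR10 and NDUFB9 had adjusted p between 0.0378 and 0.0479.

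The resistant and sensitive partners were compared in the vehicle libraries with a term for family. Of 83 subunits, 2 were past an unadjusted p of 0.05 in the higher direction, beside 1.96% of all genes, and 0 in the lower, beside 1.75%, and the adjusted count was 0, as for 0% of all genes by edgeR and 0 subunits by DESeq2, beside 0.304% of the genes with an adjusted p. ATP5MF, the f subunit of the membrane sector, was at 1.13 ± 0.42 (SE) and NDUFV1, the NADH-binding subunit of complex I, at 0.71 ± 0.29, with an adjusted p of 0.994 for both by edgeR. NDUFV1 read 143 and 312 CPM in HeyA8 and HeyA8-MDR, 74.2 and 112 in SKOV3 and SKOV3-TR and 246 and 323 in OV2008 and C13, higher in 3 of 3 resistant lines. Without the HeyA8 family the count of subunits past 0.05 was 0, beside 2.29% of all genes in the higher direction. NDUFB1, SDHA, SDHC, UQCR10, COX4I1 and ATP5MC1 lay between 0.17 and 0.67 at the same adjusted p, UQCRH was at -0.34 and COX7A1 at 2.56 with an SE of 1.43. The median difference over the subunits was 0.24 in the HeyA8 pair, 0.11 in the SKOV3 pair and 0.17 in the OV2008 pair, with 63, 53 and 52 of 83 higher in the resistant line. The medians over all genes were 0.00, 0.00 and 0.03 in these pairs, and no test was made within a pair.

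ATP5MF (ENSG00000241468) also set the HeyA8 partners apart. It read 45.5 CPM in HeyA8 vehicle, 173 in HeyA8 QC, 198.5 in HeyA8-MDR vehicle and 323 in HeyA8-MDR QC libraries. Its log2 difference between the vehicle libraries was 2.12, and its 10 nearest tested genes on chromosome 7 were all higher in HeyA8-MDR, from 1.65 to 2.66 with a median of 1.91. The HeyA8 QC library lay 83.1% of the way to the HeyA8-MDR level for ATP5MF, 95.4% for COX6B1 and 46.4% for NDUFV1. COX6B1 read 126, 277, 285 and 386 CPM in that order of libraries. The neighbours PDAP1 and ARPC1B also read higher in HeyA8 QC than in HeyA8 vehicle, at 247 against 87.4 CPM and 95.3 against 41.1 CPM. NDUFA5 was lower in HeyA8-MDR, at 7.78 against 26.7 CPM, and at 27.2 CPM in HeyA8 QC.

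**Figure D5:**
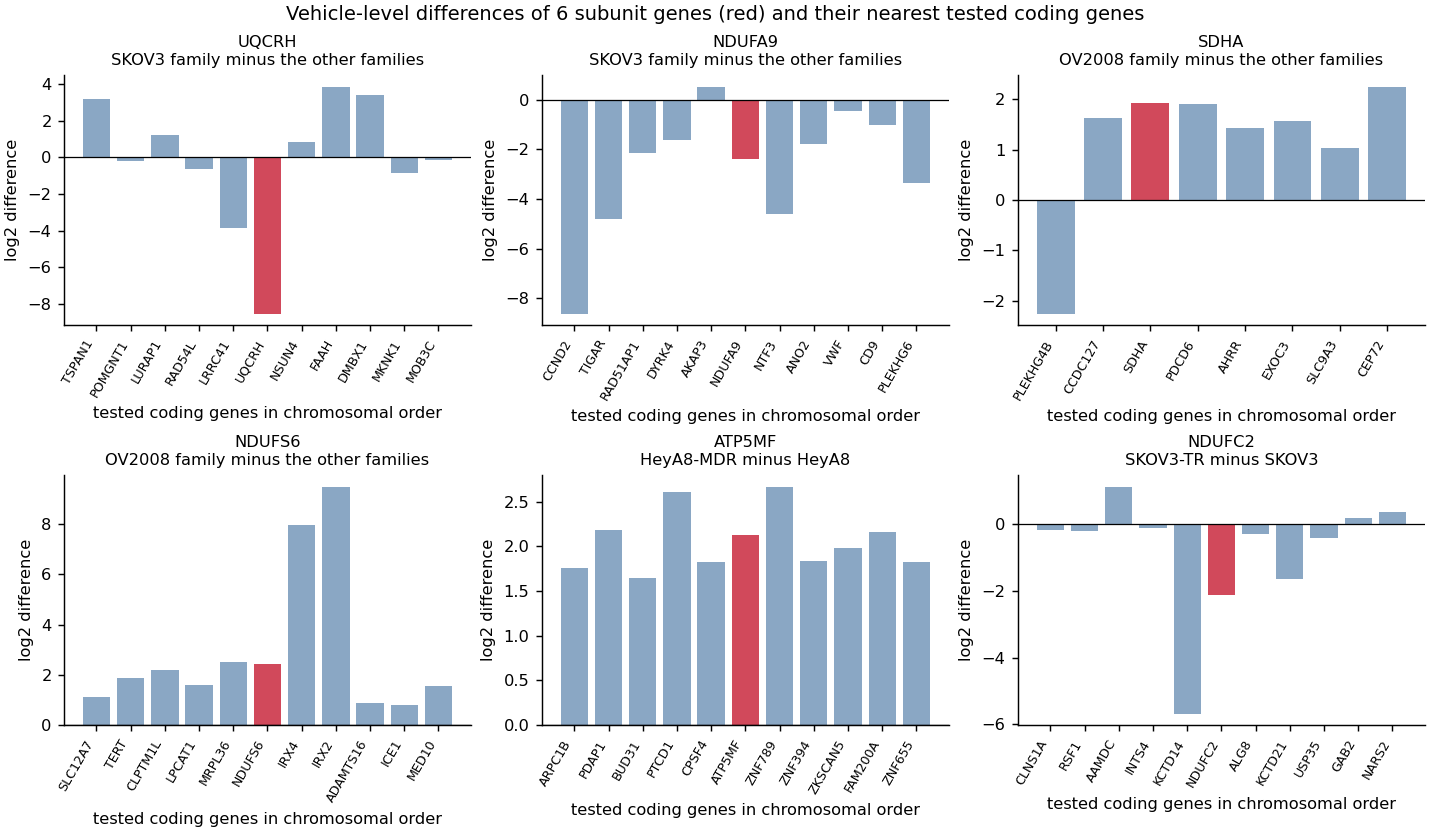
Log2 differences in vehicle level for 6 subunit genes (red) and the nearest tested coding genes in chromosomal order (blue), with the contrast above each panel. All genes around ATP5MF and NDUFS6 lie above 0, while UQCRH is lowest in its panel and next to LRRC41, and NDUFC2 sits beside KCTD14.

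NDUFC2, a membrane arm subunit, was low in SKOV3-TR. It read 5.90 and 7.20 CPM in vehicle and QC libraries there, 25.8 and 30.3 in SKOV3 and 25.98 to 50.2 in the other 8. The neighbouring KCTD14 was at -5.69 between SKOV3-TR and SKOV3 on the log2 scale, the lowest of 10 neighbours. NDUFC2 was at -2.11, and the median of the 10 was -0.17. In vehicle libraries KCTD14 read 4.30 CPM in SKOV3 and 0 in SKOV3-TR, so its value rests on the floor. KCTD14 also read 0.112 and 0.0332 CPM in OV2008 and C13, where NDUFC2 read 33.5 and 50.2.

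Genes that build, feed or regulate the chain were examined from lists which hold no subunit above. Over all 6 lines, 1 of 27 assembly factors of complexes I to III was past an unadjusted p of 0.05 in the higher direction and 2 in the lower. BCS1L, which inserts the Rieske protein, was at -0.47 ± 0.14 (SE, adjusted p = 0.174 by edgeR) and SDHAF4, which helps to mature SDHA, at 0.55 ± 0.20 (adjusted p = 0.222). Of 29 assembly factors of complexes IV and V, 2 were higher and 3 lower, led by COX11, a copper chaperone, at 0.41 ± 0.12 (adjusted p = 0.176 by edgeR) and ATPAF2, an F1 assembly factor, at -0.48 ± 0.17 (adjusted p = 0.214). Among 15 carriers and subunits outside the naming rule, 1 was lower, COQ4 of ubiquinone synthesis at -0.43 ± 0.12 (adjusted p = 0.171 by edgeR). Of 20 regulators 0 were higher and 4 lower, led by PPARGC1B, a coactivator, at -0.63 ± 0.18 (adjusted p = 0.174 by edgeR) and POLRMT, the mitochondrial RNA polymerase, at -0.44 ± 0.13 (adjusted p = 0.177). Beside these counts, 7.99% of all genes were past the unadjusted p in the higher direction and 7.18% in the lower. The adjusted count was 0 in each of these lists, as it was over all genes. PPARGC1A had the smallest p of its list for the difference between resistant and sensitive lines, at -1.53 ± 0.62 (SE, adjusted p = 0.9998 by edgeR).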

How the data were processed

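The authors deposited 1 table of raw counts of reads per gene for the 12 libraries, without normalization. The submitters' processing notes name STAR 2.7.3a, HTSeq 0.6.1p1 and GRCh38.p13, while the methods of the study name TopHat and hg19, and strand setting and annotation are not given in the sources used here. Libraries were polyA RNA made with a TruSeq kit. Of 60669 IDs, 58620 were paired with a symbol, and the others held 0.132% of counts. Pseudogenes of the members held 0.291 to 1.04% of the counts on members and pseudogenes together.

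Tests used R 4.3.3 with edgeR 4.0.16 (quasi-likelihood, TMM, two-sided, Benjamini-Hochberg) and limma 3.58.1, on 18720 genes kept by filterByExpr (minimum count 10, total 15), and DESeq2 1.42.0 as an alternative. QC effects had a term for each line, since vehicle and QC libraries of a line share their cells and deviated together (correlations of 0.893 to 0.929 across genes). Log2 levels used a prior count of 2. In data simulated for the 18720 genes, 89% of 2-fold changes over 6 lines passed the adjusted threshold. The share was 45% in the 3 sensitive lines, 28% in the 3 resistant lines and 9% for the difference between these groups. The share for a QC effect that differs in size or sign between lines, as the subunit medians did, was not tested. Named genes were, in each comparison, the 2 members of each complex with the smallest p, the 2 with the widest range over lines, isoform sets, core subunits and members of 1 sign in all lines. Members and lists were chosen with earlier results of these data known. Lengths are those of canonical GENCODE transcripts lifted to GRCh37, from which no coordinates are given. The values of 1 member are not reported here, though it is in the counts and medians. Values of single lines have no test. Alternatives were other scalings, filters, blocks, DESeq2 and leaving out each line.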

Additional observations from a re-analysis of the deposited data

Results flagged for a closer look

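The QC ratios of the lines were examined for a line standing apart by Dixon's criterion at the 95% level, for the subunits, the 5 complexes and all subunits together, 88 sets in all. Of these 87 had a ratio in all 6 lines and COX6B2 had 5, while COX7B2, with a ratio in SKOV3 and SKOV3-TR only, was not examined. The criterion was met by 0 of them, where chance meets it in about 1 of 20. The test of the difference in QC effect between resistant and sensitive lines gave 0 subunits at an adjusted or an unadjusted p under 0.05 by edgeR.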

How the results depend on the processing

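Vehicle and QC libraries of a line are paired, and without the replicate block the counts of subunits past an unadjusted p of 0.05 became 0 in the sensitive lines (higher), 0 and 0 in the resistant lines (higher and lower) and 0 and 0 over all 6 lines. Without the family block the vehicle comparison of partners gave 0, and with the family as block the difference between groups stayed at 0. In the sensitive lines the higher count was 2 with library size alone, 2 without the expression filter and 2 under a minimum of 10 counts per library, and the lower count was 1 without the filter. In the resistant lines the lower count was 2 with library size alone. Over all 6 lines 1 subunit, ATP5MF, passed the adjusted threshold without the filter, where 2% of all genes did, at 0.52 (adjusted p = 0.0228 by edgeR). Without HeyA8 it was at 0.26 (adjusted p = 0.556). Comparing partners in the QC libraries or with DESeq2 size factors gave 1 higher. The family test gave 38 subunits with DESeq2, 30 without the filter and 21 with a family term alone, beside 37.2%, 18.5% and 23.1% of all genes. In the QC libraries 20 subunits were above the other 4 lines in the OV2008 pair, beside 17.5% of all genes. In the HeyA8 pair 23 were above and 2 below in these libraries, beside 18.6% and 17.04%. With library size alone 30 were below in the SKOV3 pair, beside 12.03% of all genes. In the HeyA8 pair 1 was then above and 13 below, beside 11.7% and 17.6%. With exon-union lengths, an alternative added after seeing the data as were these family counts, the medians per kilobase were 12.96 for complex I, 26.6 for II, 48.0 for IV and 32.0 for V.

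Leaving out 1 line at a time, the higher and lower counts ranged from 0 to 2 and 0 to 1 in the sensitive lines, 0 to 24 and 0 to 1 in the resistant lines, 3 to 18 and 0 to 3 over all lines, and 0 to 3 (higher) for the difference. The counts were 0 to 2 for the partners, and 17 to 31 unadjusted and 1 to 9 adjusted for families. C13 gave the 24, the 18 and the 3. Of 713 alternatives for named subunits 674 kept direction and side of the threshold and 5 reversed. SDHA for the difference ranged from -0.023 to 0.29, and UQCRH for the partners from -0.70 to 0.0094. COX7A1 became 0.45 for the difference without the replicate block and -0.13 for the partners in QC libraries. The cause was not tested. Undivided CPM was not run, since it leaves the order of lines within a gene as it is. With 1 library per line and treatment, differences near the median SE, and larger ones such as that of NDUFA5, could not be told from 0.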
